A study of Homo sapiens with 27 samples.

Results

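The comparison of 2 CRISPR guides against TADA2B in A375 cells under trametinib rests on 6 of the 27 RNA-seq libraries of the study: 3 libraries of cells knocked out with guide 2 and 3 of cells knocked out with guide 1, all treated with 20 nM trametinib for 24 h. They were taken by their column labels, with no measured value used. A375 is a human melanoma line whose BRAF kinase carries an activating mutation, and trametinib inhibits MEK, the kinase that BRAF activates. Beside these 6, the text gives 3 libraries of cells with a guide against GFP (control guide, genotype labelled wild type) under the same drug, and both TADA2B guides, 3 libraries each, in 1 µM vemurafenib, an inhibitor of mutant BRAF, and in DMSO, the solvent. All groups come from the same line, grown in DMEM with serum. The labels do not say whether a guide's cells were a pool or 1 clone. Nor do they tie the 3 libraries of a group to different cultures, and the spread on which every p-value rests may therefore be technical.

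TADA2B is an adaptor protein of SAGA, a large coactivator complex in which it holds the histone acetyltransferase KAT2A or KAT2B, helps the module acetylate histone H3 at promoters, and so acts on transcription by RNA polymerase II. SAGA also carries a module that removes ubiquitin from histone H2B. In melanoma, cells move between a melanocytic state driven by SOX10 and MITF, a neural crest-like state marked by NGFR, and an undifferentiated state marked by EGFR and AXL, and drugs that block BRAF or MEK can shift cells along this range. A pair of guides against the same gene is a usual control in knockout work, since what both share is less likely to come from an unintended cut.

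Total counts lay between 67502300 and 79524936 in the guide 2 libraries and between 80944606 and 92513726 in the guide 1 libraries, which also span the full range of the 27 libraries. Mitochondrially encoded genes took 2.88% to 3.10% of counts with guide 2, 2.64% to 3.09% with guide 1 and 1.79% to 2.09% with the control guide. The chi-square of counts, per degree of freedom, was 3.31 to 8.83 for pairs of the same guide, which is above sampling noise. Pairs with guide 1 replicate 1 had 8.83 and 5.95, against 3.62 for guide 1 replicates 2 and 3. Log values correlated across genes at 0.992 or above for pairs of the same guide. Melanoma markers were present: the summed level of 14 of them was 1096 to 1142 CPM (counts relative to the library total, scaled by edgeR's TMM factors) with guide 2, 1382 to 1430 CPM with guide 1 and 2870 to 3045 CPM with the control guide. The pigment enzyme gene TYR was at 0 in all 3 guide 2 libraries, and had 0.0556, 0.0307 and 0.0232 CPM with guide 1 and 0.134, 0.120 and 0.149 CPM with the control guide.

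The level of the targeted gene is given first, and it cannot tell which of the 2 guides a library carries. TADA2B (ENSG00000173011, chromosome 4, 7041899 to 7057952, plus strand, hg38) had 28.8, 29.4 and 29.8 CPM with guide 2, against 34.2, 35.7 and 34.8 CPM with guide 1 and 40.5, 40.7 and 42.8 CPM with the control guide. The 3 groups did not overlap, with guide 2 lowest and the control guide highest. The difference of guide 2 from guide 1 was -0.25 ± 0.042 (log2 fold change ± standard error, 3 libraries each), with an adjusted p of 6.9e-06 in edgeR's quasi-likelihood test. In vemurafenib TADA2B had 27.6, 29.3 and 28.6 CPM with guide 2 against 32.2, 31.8 and 33.8 CPM with guide 1, a log2 difference of -0.19 with an adjusted p of 0.00057. In DMSO the values were 28.97, 27.3 and 29.6 CPM with guide 2 against 29.6, 31.1 and 30.6 CPM with guide 1, a log2 difference of -0.09 that did not pass (adjusted p = 0.21). The transcript is still made with both guides, and its level does not measure the protein.

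Guide 2 cells differed from guide 1 cells in many genes by small amounts. Of 25199 genes tested with edgeR's quasi-likelihood test, 4954 (19.7%) passed a Benjamini-Hochberg adjusted p of 0.05 and are named called below: 2710 (10.8%) were higher with guide 2 and 2244 (8.91%) were lower. That balance turned without guide 1 replicate 1 (2054 higher, 2152 lower) and with the 6 libraries alone (2633 higher, 2659 lower). The median log2 difference over all genes was 0.017. A difference of at least 2-fold was reached by 56 higher genes (0.222%) and 233 lower genes (0.925%). Among genes averaging at least 1 log2-CPM over the 6 libraries, 0 rose and 69 fell by that much, 59 of them protein-coding, and the other 56 rises and 164 falls of that size were in genes under that level. Requiring an average of at least 1 CPM left 111 called genes of that size in place of 289. In bulk RNA, fewer cells of a type and less RNA per cell cannot be told apart.

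**Figure D1:**
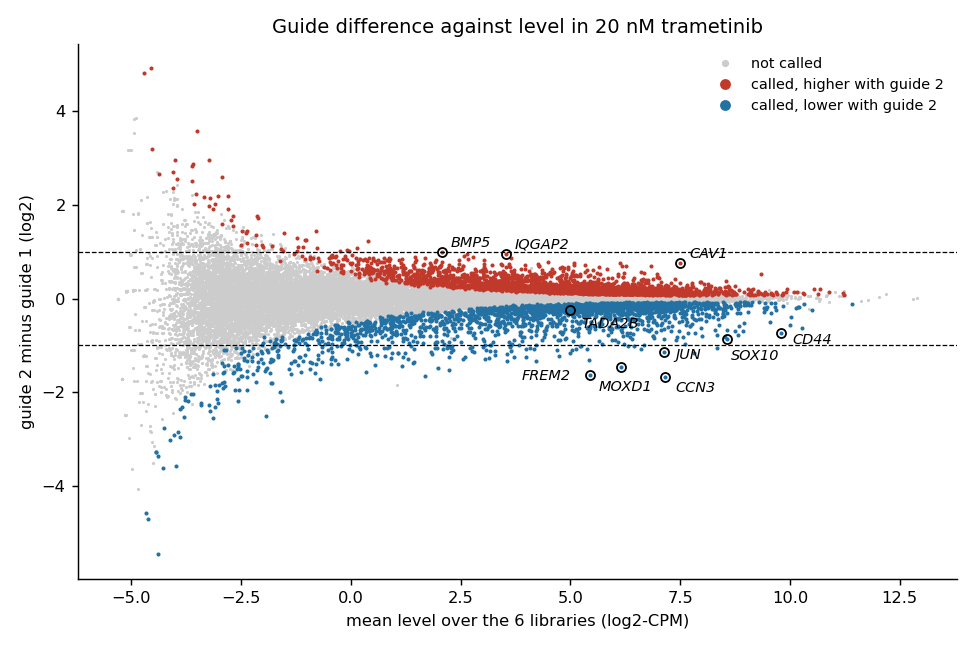
Log2 difference of guide 2 from guide 1 in trametinib (vertical) against the mean log2-CPM of the 6 libraries (horizontal), 1 point per gene, with dashed lines at a 2-fold difference. At 1 log2-CPM and above, 69 called genes lie under the lower line and 0 above the upper one.

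The falls were led by CCN3, a secreted matrix-associated protein of the CCN family that melanocytes use to contact keratinocytes and the basement membrane. CCN3 (chromosome 8, 119416306 to 119424353, plus strand) had 78.8, 78.8 and 80.3 CPM with guide 2, against 264, 252 and 246 CPM with guide 1 and 504, 495 and 490 CPM with the control guide. The guide groups were far apart, with a log2 difference of -1.68 ± 0.031 (adjusted p = 1.3e-38). FREM2, an extracellular matrix protein of the basement membrane, had 26.8, 24.6 and 23.4 CPM with guide 2, against 83.1, 75.0 and 73.1 CPM with guide 1 and 205, 185 and 190 CPM with the control guide (log2 -1.63 ± 0.046). MOXD1, a monooxygenase-like protein, had 41.4, 42.9 and 43.0 CPM with guide 2, against 119, 114 and 120 CPM with guide 1 and 421, 410 and 433 CPM with the control guide (log2 -1.47 ± 0.035). In each of these 3 genes the control libraries were highest and guide 1 lay between them and guide 2. Genes were named here only if the 2 guide groups did not overlap, so that separation was set by the choice. Over all 25199 genes tested, the guide 1 mean lay between the other 2 group means in 55.5%. ZNF536, a zinc finger repressor, had 27.2, 27.4 and 27.2 CPM with guide 2, against 68.2, 67.8 and 67.2 CPM with guide 1 and 176, 174 and 182 CPM with the control guide (log2 -1.31 ± 0.036). BEST1, a calcium-activated chloride channel, had 7.30, 7.58 and 7.28 CPM with guide 2, against 18.0, 20.0 and 18.2 CPM with guide 1 (log2 -1.34 ± 0.070), and 14.2% of its exon bases lie opposite FTH1, whose reads could not be told apart if counting ignored strand.

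The other 10 of the 15 largest falls, in order of size, were MMP8 (a collagenase), IL24 (a cytokine first found in differentiating melanoma cells), KCNJ10 (a potassium channel), SCRG1, FLRT1 (an adhesion protein), PKNOX2 (a homeobox protein), FLT1 (a VEGF receptor), AATK (a kinase), ANGPTL7 and UCN2 (a corticotropin-releasing hormone relative). Their log2 differences ran from -1.65 in MMP8 to -1.25 in UCN2. IL24 had 3.03, 2.81 and 2.45 CPM with guide 2, against 8.25, 7.58 and 7.91 CPM with guide 1 and 43.2, 40.0 and 42.2 CPM with the control guide. MMP8 had 1.58, 1.84 and 1.93 CPM with guide 2, against 5.55, 5.63 and 5.75 CPM with guide 1 and 8.63, 7.84 and 8.72 CPM with the control guide. UCN2 shares 19.5% of its exon bases with PFKFB4 on the same strand, so its counts are uncertain. The call of each of these 15 genes held in all alternatives run.

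The rises were smaller. BMP5, a bone morphogenetic protein ligand, had 5.58, 6.27 and 5.84 CPM with guide 2, against 2.99, 3.35 and 2.59 CPM with guide 1 and 0.562, 0.976 and 0.584 CPM with the control guide (log2 0.98 ± 0.163, adjusted p = 8.5e-06). IQGAP2, a scaffold protein of the actin cytoskeleton, had 16.1, 16.6 and 15.5 CPM with guide 2, against 8.60, 7.92 and 8.35 CPM with guide 1 and 4.99, 3.45 and 4.02 CPM with the control guide (log2 0.95 ± 0.079). ELF3, an epithelial ETS factor, had 8.41, 8.73 and 9.00 CPM with guide 2, against 4.65, 4.31 and 4.605 CPM with guide 1 and 0.599, 0.723 and 0.597 CPM with the control guide (log2 0.95 ± 0.119). In all 3 genes the control guide was lowest, and its libraries overlapped those of neither TADA2B guide. That the 2 guide groups did not overlap was required for a gene to be named here. MAP2, a microtubule protein of neurons, had 8.58, 7.80 and 8.30 CPM with guide 2, against 4.90, 3.67 and 4.51 CPM with guide 1 and 0.403, 0.361 and 0.122 CPM with the control guide (log2 0.92 ± 0.094). IL1B, an inflammatory cytokine, had 3.29, 2.97 and 2.65 CPM with guide 2, against 1.71, 1.54 and 1.67 CPM with guide 1 and 0.122, 0.169 and 0.299 CPM with the control guide (log2 0.85 ± 0.162). Others among the 15 largest rises were SCHIP1, CDH9 (a cadherin), PALM3, UPK3B (a uroplakin), GFRA1 (the GDNF co-receptor), SHOC1 (a meiotic protein), LRRTM3 (a synaptic adhesion protein), PEAR1 (a platelet receptor) and TNNC1 (troponin C), with log2 differences between 0.79 and 0.89. SCHIP1 shares 21.5% of its exon bases with the read-through gene IQCJ-SCHIP1 on the same strand.

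**Figure D2:**
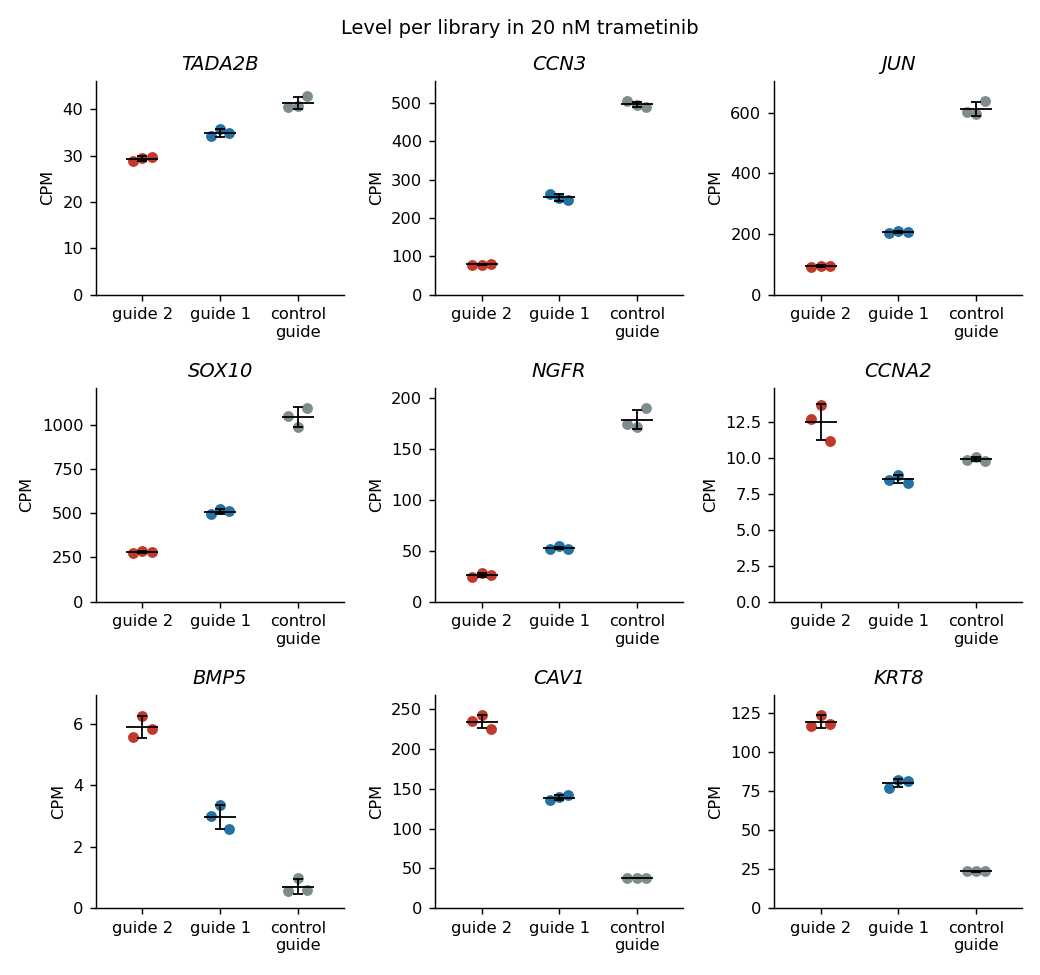
CPM in each library for 9 genes under trametinib, in the order guide 2, guide 1 and control guide; points are libraries and bars are the mean ± SD of 3. CCN3, JUN, SOX10 and NGFR are lowest with guide 2 and highest with the control guide, BMP5, CAV1 and KRT8 run the other way, and CCNA2 is highest with guide 2 and lowest with guide 1.

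Among the lists described, that of mitotic genes had the highest share of rises. Of 30 in the G2/M list, 28 were called higher and 0 lower, with a median log2 difference of 0.28, where 10.8% of all genes were called higher and the median was 0.017. Of all genes 8.91% were called lower, and each list count below is to be read against both shares. CCNA2, the cyclin of S phase and mitotic entry, had 12.7, 13.6 and 11.1 CPM with guide 2, against 8.48, 8.77 and 8.21 CPM with guide 1 and 9.80, 10.0 and 9.79 CPM with the control guide (log2 0.55 ± 0.060, adjusted p = 3.8e-10). TTK, a spindle checkpoint kinase, had 7.49, 8.72 and 7.63 CPM with guide 2, against 5.91, 5.74 and 5.50 CPM with guide 1 and 6.09, 6.00 and 5.13 CPM with the control guide (log2 0.48 ± 0.071). BUB1, also a spindle checkpoint kinase, had 12.0, 13.1 and 12.4 CPM with guide 2, against 8.83, 9.33 and 10.1 CPM with guide 1 and 10.7, 9.56 and 10.7 CPM with the control guide (log2 0.41 ± 0.057). These 3 genes were higher with guide 2 than in any guide 1 or control library. The kinetochore protein NUF2 (log2 0.40) followed. The 2 members that did not pass were AURKB, at 7.26, 7.85 and 7.21 CPM with guide 2 against 6.26, 6.84 and 7.18 CPM with guide 1 (adjusted p = 0.12), and PRC1, at 1.90, 2.34 and 1.95 CPM with guide 2 against 1.71, 1.76 and 1.86 CPM with guide 1 (adjusted p = 0.19). Set against the control guide in the same drug, the list's median log2 difference was 0.062 with guide 2 and -0.22 with guide 1.

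The promoters of 4 of these genes are shown with 2 short motifs known from mitotic promoters, the CCAAT box and the cell cycle homology region (CHR). The CCAAT box stands in all 4. The CHR was searched only as the letters TTTGAA, which stand in CCNB2 and PLK1, so other forms of it would be missed. Both motifs were searched on both strands in the 250 bases before each start, and they do not overlap each other here. CCNB2, a mitotic cyclin, and PLK1, a mitotic kinase, were added after their values were seen, since their windows hold both motifs. Each line gives the 250 bases before a single RefSeq start of the gene on GRCh38.p14. It runs in the gene's direction, with CCAAT (or ATTGG, its other strand) and TTTGAA in capitals. Other starts of a gene were not searched, here or for the promoters below.
CCNA2: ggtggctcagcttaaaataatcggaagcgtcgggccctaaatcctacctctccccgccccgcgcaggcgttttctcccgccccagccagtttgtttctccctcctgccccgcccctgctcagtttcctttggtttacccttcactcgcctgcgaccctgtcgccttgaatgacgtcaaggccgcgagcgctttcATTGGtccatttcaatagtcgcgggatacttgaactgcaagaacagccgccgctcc
BUB1: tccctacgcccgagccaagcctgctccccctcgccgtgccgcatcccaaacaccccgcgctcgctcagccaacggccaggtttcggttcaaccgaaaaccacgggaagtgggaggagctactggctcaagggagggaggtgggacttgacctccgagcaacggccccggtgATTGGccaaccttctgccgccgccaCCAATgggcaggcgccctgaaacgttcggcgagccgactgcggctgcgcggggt
CCNB2: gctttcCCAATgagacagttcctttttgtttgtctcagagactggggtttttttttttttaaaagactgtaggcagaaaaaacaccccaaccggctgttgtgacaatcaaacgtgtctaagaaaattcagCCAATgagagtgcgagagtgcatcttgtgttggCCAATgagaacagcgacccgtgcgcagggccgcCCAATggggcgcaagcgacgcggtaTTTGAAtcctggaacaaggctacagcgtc
PLK1: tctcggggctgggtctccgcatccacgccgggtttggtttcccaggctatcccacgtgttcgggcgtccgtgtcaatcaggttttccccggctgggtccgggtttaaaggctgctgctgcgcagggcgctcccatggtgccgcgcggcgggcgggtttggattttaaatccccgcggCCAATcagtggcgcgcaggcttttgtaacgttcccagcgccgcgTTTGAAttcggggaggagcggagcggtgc
These stretches lie at chr4:121823884-121824133 on the minus strand for CCNA2, chr2:110678064-110678313 on the minus strand for BUB1, chr15:59104896-59105145 on the plus strand for CCNB2 and chr16:23678639-23678888 on the plus strand for PLK1. The CCNA2 window held 1 CCAAT box, whose first base lies 56 bases before the start, and no TTTGAA. The BUB1 window held 2 CCAAT boxes at -79 and -54. In CCNB2, 4 CCAAT boxes stood at -244, -120, -87 and -54 and the CHR at -29. In PLK1 the CCAAT box stood at -73 and the CHR also at -29. Of the 24 list members with a promoter in the table, 18 (75%) held a CCAAT box, 11 (45.8%) the letters TTTGAA and 10 (41.7%) both. Among 14259 tested genes with a promoter, 34.6% held CCAAT, 9.30% TTTGAA and 3.64% both. Over all 2095 genes called higher that have a promoter, 109 (5.20%) held both. CCNB2 itself had 23.4, 23.3 and 23.8 CPM with guide 2, against 18.3, 19.6 and 20.0 CPM with guide 1 and 26.0, 26.8 and 25.0 CPM with the control guide (log2 0.29), and was thus highest with the control guide. PLK1 had 19.0, 19.2 and 18.2 CPM with guide 2, against 14.8, 17.7 and 16.6 CPM with guide 1 and 18.9, 18.8 and 19.4 CPM with the control guide (log2 0.20).

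In the list of S phase and DNA replication, 13 of 36 genes were higher with guide 2 and 1 was lower, with a median log2 difference of 0.11. The replicative polymerase subunit POLE2 (log2 0.53), the methylation maintenance factor UHRF1 (0.38) and the ribonucleotide reductase subunit RRM2 (0.36) rose most, and the flap endonuclease FEN1 fell (-0.25). UHRF1 averaged 19.6 CPM with guide 2, 15.0 CPM with guide 1 and 12.2 CPM with the control guide. Of 20 G1 cyclins, kinases and inhibitors, 3 rose and 4 fell, and without any one of 3 libraries (guide 1 replicate 1 or 3, or guide 2 replicate 2) 1 rose, while without guide 1 replicate 2 or guide 2 replicate 1 there were 2 falls. CDKN1C, the p57 inhibitor of cyclin-dependent kinases, had 7.97, 8.84 and 8.99 CPM with guide 2, against 16.4, 17.7 and 18.2 CPM with guide 1 and 30.7, 34.0 and 38.4 CPM with the control guide (log2 -1.02 ± 0.069). CDKN1A, the p21 inhibitor, fell as well (-0.30), averaging 322 CPM with guide 2, 397 CPM with guide 1 and 311 CPM with the control guide. The G1 kinase CDK6 rose (0.32), to an average of 116 CPM with guide 2, against 92.5 CPM with guide 1 and 80.2 CPM with the control guide. CCND1, the MAPK-driven D cyclin, had 37.3, 36.5 and 37.6 CPM with guide 2 against 39.2, 37.1 and 38.7 CPM with guide 1 (log2 -0.05, adjusted p = 0.43).

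Genes of the melanocytic and neural crest states were called lower with guide 2 more often than higher. SOX10, the lineage factor of neural crest and melanocytes, had 273, 288 and 282 CPM with guide 2, against 496, 524 and 511 CPM with guide 1 and 1050, 987 and 1099 CPM with the control guide (log2 -0.86 ± 0.037, adjusted p = 2.2e-22). MITF, the master factor of melanocytes, was not called: it had 91.1, 89.8 and 87.1 CPM with guide 2, against 89.2, 89.8 and 88.9 CPM with guide 1, with overlapping libraries (log2 0.00 ± 0.034, adjusted p = 1.00), and 141, 144 and 136 CPM with the control guide. Of 19 melanocyte and neural crest transcription factors, 9 fell and 3 rose. FOXD3, a neural crest specifier, had 23.5, 23.9 and 23.8 CPM with guide 2, against 49.3, 52.3 and 50.01 CPM with guide 1 and 106, 100.7 and 111 CPM with the control guide (log2 -1.09 ± 0.047). ZEB2, a repressor that melanocytes need, had 64.8, 59.5 and 61.3 CPM with guide 2, against 123, 127 and 124 CPM with guide 1 and 335, 323 and 328 CPM with the control guide (log2 -1.01 ± 0.036). Among the rises was SOX9, a factor often found opposite SOX10 in melanoma, at 5.04, 4.65 and 4.66 CPM with guide 2, against 2.63, 2.96 and 3.34 CPM with guide 1 and 0.795, 0.410 and 0.312 CPM with the control guide (log2 0.68 ± 0.143). Of 15 neural crest-like drug tolerance markers, 9 fell and 1 rose, with a median log2 difference of -0.26. RXRG, a retinoid receptor, fell most (-1.16), followed by GDNF (-1.07), NGFR (-1.01) and CADM1 (-0.87). NGFR, the low-affinity neurotrophin receptor, had 24.1, 28.0 and 26.0 CPM with guide 2, against 52.0, 54.1 and 51.5 CPM with guide 1 and 175, 172 and 190 CPM with the control guide. About 27.1% of the exon bases of NGFR lie opposite another annotated gene. GDNF, a neurotrophic ligand, had 10.6, 12.0 and 10.2 CPM with guide 2, against 22.5, 23.7 and 22.9 CPM with guide 1 and 79.8, 80.6 and 80.5 CPM with the control guide. ANXA1 (annexin A1) was the member that rose (0.27).

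Of 17 tested genes of pigment synthesis and the melanosome, 5 fell and 3 rose (median -0.042). Besides TYR, whose levels are given above, CITED1 (-1.03), a transcriptional coregulator, CAPN3 (-0.79), a calpain, and DCT (-0.60) fell. The rises were the melanin synthesis gene TYRP1 (0.60), the RAB38 gene (0.20) and the RAB27A gene (0.16), both of melanosome transport. TYRP1 had 2.00, 1.38 and 1.88 CPM with guide 2, against 1.20, 1.15 and 1.11 CPM with guide 1 (adjusted p = 0.023), and lost its call without guide 1 replicate 2 or 3 or guide 2 replicate 1 or 3. DCT, the dopachrome tautomerase of melanin synthesis, had 67.9, 67.9 and 68.3 CPM with guide 2, against 108, 102 and 99.8 CPM with guide 1 and 1042, 1036 and 1063 CPM with the control guide. CITED1 and CAPN3 share 38.6% and 57.1% of their exon bases with same-strand genes and are uncertain. Leaving out guide 1 replicate 3 or guide 2 replicate 1 reduced the rises to 1.

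In the list of the undifferentiated melanoma state, 13 of 25 genes rose and 8 fell (median 0.16). CAV1, the coat protein of caveolae, had 235, 242 and 225 CPM with guide 2, against 136, 139 and 142 CPM with guide 1 and 37.6, 37.9 and 38.7 CPM with the control guide (log2 0.75 ± 0.032). EGFR, the epidermal growth factor receptor, had 21.8, 22.2 and 20.3 CPM with guide 2, against 14.5, 15.7 and 15.6 CPM with guide 1 and 3.28, 3.45 and 3.46 CPM with the control guide (log2 0.49 ± 0.053). AXL, a receptor tyrosine kinase of the same state, had 174, 176 and 174 CPM with guide 2, against 149, 157 and 160 CPM with guide 1 (log2 0.17 ± 0.031), and the control guide had more than either, at 194, 189 and 196 CPM. Falls as large or larger stood in the same list: JUN (-1.13), the matrix protein TNC (-0.79) and the hyaluronan receptor CD44 (-0.74). CD44 had 697, 688 and 688 CPM with guide 2, against 1162, 1153 and 1141 CPM with guide 1 and 2036, 1967 and 2007 CPM with the control guide. TNC had 349, 341 and 346 CPM with guide 2, against 583, 616 and 588 CPM with guide 1 and 608, 563 and 616 CPM with the control guide, so that guide 1 and the control guide overlapped.

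In the list of keratins, hemidesmosomes and desmosomes, 16 of 31 genes rose and 3 fell (median 0.22). SFN, the epithelial 14-3-3 sigma protein, had 13.6, 14.8 and 13.0 CPM with guide 2, against 8.17, 8.54 and 8.29 CPM with guide 1 and 0.733, 0.795 and 0.720 CPM with the control guide (log2 0.73 ± 0.072). KRT8, a simple-epithelium keratin, had 116, 124 and 117 CPM with guide 2, against 76.8, 81.9 and 81.5 CPM with guide 1 and 23.6, 23.7 and 24.1 CPM with the control guide (log2 0.57 ± 0.036). PKP2 (0.60), a desmosome plakophilin, rose too, and KRT19 (0.66), another simple-epithelium keratin, lost its call without the low-count filter and without any one of 5 of the 6 libraries (all but guide 2 replicate 3). KRT14, a keratin of basal keratinocytes, fell (-0.68), with 8.95, 9.55 and 9.19 CPM with guide 2, against 14.6, 15.0 and 14.6 CPM with guide 1 and 7.05, 9.02 and 10.6 CPM with the control guide, whose libraries overlapped those of guide 2. ITGA6, the laminin-binding integrin, fell (-0.87), with 106, 98.8 and 104 CPM with guide 2, against 189, 185 and 190 CPM with guide 1 and 320, 318 and 312 CPM with the control guide. The summed level of 8 defining keratinocyte markers was 63.7 to 68.7 CPM with guide 2, 63.3 to 68.2 CPM with guide 1 and 48.6 to 51.9 CPM with the control guide, with KRT1 at 0 in all 9 libraries. Fibroblast markers summed to 143 to 148 CPM with guide 2, 112 to 117 CPM with guide 1 and 67.9 to 73.8 CPM with the control guide: 4 of 9 tested rose (COL3A1, COL1A1, LUM and PDGFRB) and 0 fell, and DPT was at 0 in all libraries of both TADA2B guides. Endothelial markers summed to 12.0 to 13.1 CPM with guide 2, 14.1 to 14.9 CPM with guide 1 and 21.6 to 23.3 CPM with the control guide (0 of 8 rose, 2 fell, or 1 without guide 2 replicate 3), and leukocyte markers to 14.0 to 14.8 CPM with guide 2, 16.2 to 18.3 CPM with guide 1 and 7.49 to 8.77 CPM with the control guide (0 of 7 rose, 1 fell, with MS4A1 at 0 with both TADA2B guides). The part of such cells in these differences was not tested.

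Of 16 genes of the AP-1 family, the factors formed downstream of stress and MAP kinases by JUN, FOS and related proteins, 6 fell with guide 2, 2 rose and 8 were not called (median -0.075). JUN had 92.2, 96.2 and 95.6 CPM with guide 2, against 205, 211 and 207 CPM with guide 1 and 602, 595 and 637 CPM with the control guide (log2 -1.13 ± 0.035, adjusted p = 2.5e-29). FOS had 6.07, 6.90 and 6.22 CPM with guide 2, against 12.6, 13.0 and 12.4 CPM with guide 1 and 58.0, 55.9 and 62.2 CPM with the control guide (log2 -0.99 ± 0.066). ATF3, a stress-induced partner of JUN, had 21.7, 21.8 and 21.7 CPM with guide 2, against 41.4, 39.6 and 38.3 CPM with guide 1 and 156, 150 and 152 CPM with the control guide (log2 -0.87 ± 0.048). Each of the 3 was lowest with guide 2 in all libraries, and MAF (-0.82), a large leucine zipper factor, fell by a like amount.

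JUN is known to bind a site like the cAMP response element in its own promoter, so the promoters of JUN and ATF3 are shown with such a match (TGANNTCA, searched on both strands) in capitals, in the same form as above.
JUN: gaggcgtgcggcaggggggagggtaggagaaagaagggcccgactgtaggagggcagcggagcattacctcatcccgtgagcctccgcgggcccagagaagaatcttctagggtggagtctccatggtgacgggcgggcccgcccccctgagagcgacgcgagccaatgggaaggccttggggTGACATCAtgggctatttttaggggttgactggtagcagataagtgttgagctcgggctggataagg
ATF3: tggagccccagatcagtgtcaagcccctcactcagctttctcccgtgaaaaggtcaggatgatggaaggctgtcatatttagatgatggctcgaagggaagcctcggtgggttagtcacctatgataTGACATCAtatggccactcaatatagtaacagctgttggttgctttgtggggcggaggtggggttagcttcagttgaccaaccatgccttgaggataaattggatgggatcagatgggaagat
They lie at chr1:58784048-58784297 on the minus strand (JUN) and chr1:212565157-212565406 on the plus strand (ATF3). The match stood at -67 in JUN and at -123 in ATF3, each counted from the single start used. A gene with further starts may have other promoters, which were not searched. Of 11 AP-1 family genes with a promoter, 5 (45.5%) held one, against 8.06% of the 14259 promoters of tested genes. Among the 116 genes with a promoter that were called and at least 2-fold lower, 19 (16.4%) held one, and among all 1619 called lower 151 (9.33%) did.

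Targets of the MAPK pathway, the pathway that trametinib blocks, were more often lower than higher: 10 of 25 fell and 3 rose (median -0.10). DUSP4, a phosphatase that acts on ERK, had 23.1, 25.1 and 24.5 CPM with guide 2, against 44.4, 44.9 and 46.8 CPM with guide 1 and 64.8, 66.7 and 65.9 CPM with the control guide (log2 -0.91 ± 0.033). EGR3, an immediate early factor, had 4.42, 3.76 and 3.85 CPM with guide 2, against 6.77, 6.98 and 7.31 CPM with guide 1 and 8.89, 9.49 and 9.11 CPM with the control guide (log2 -0.81 ± 0.078). PHLDA1, a pleckstrin homology protein, had 163, 157 and 157 CPM with guide 2, against 273, 259 and 261 CPM with guide 1 and 274, 268 and 256 CPM with the control guide (log2 -0.73 ± 0.035), so that only guide 2 stood apart from the other groups. SPRY1, a feedback inhibitor of receptor signalling, rose (0.88) at a low level of 0.730, 0.524 and 0.796 CPM with guide 2 against 0.367, 0.348 and 0.406 CPM with guide 1. SPRY4, of the same family, had 0.881, 0.639 and 0.831 CPM with guide 2 against 1.09, 0.992 and 1.24 CPM with guide 1 (log2 -0.49 ± 0.120, adjusted p = 0.0021), and its call was lost without guide 2 replicate 2 (adjusted p = 0.072) and with the 6 libraries alone (0.060). DUSP6, the ERK phosphatase most used as a readout of the pathway, had 0.578, 0.869 and 0.702 CPM with guide 2 against 0.867, 0.777 and 0.777 CPM with guide 1, with overlapping libraries (log2 -0.16 ± 0.149, adjusted p = 0.53).

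**Figure D3:**
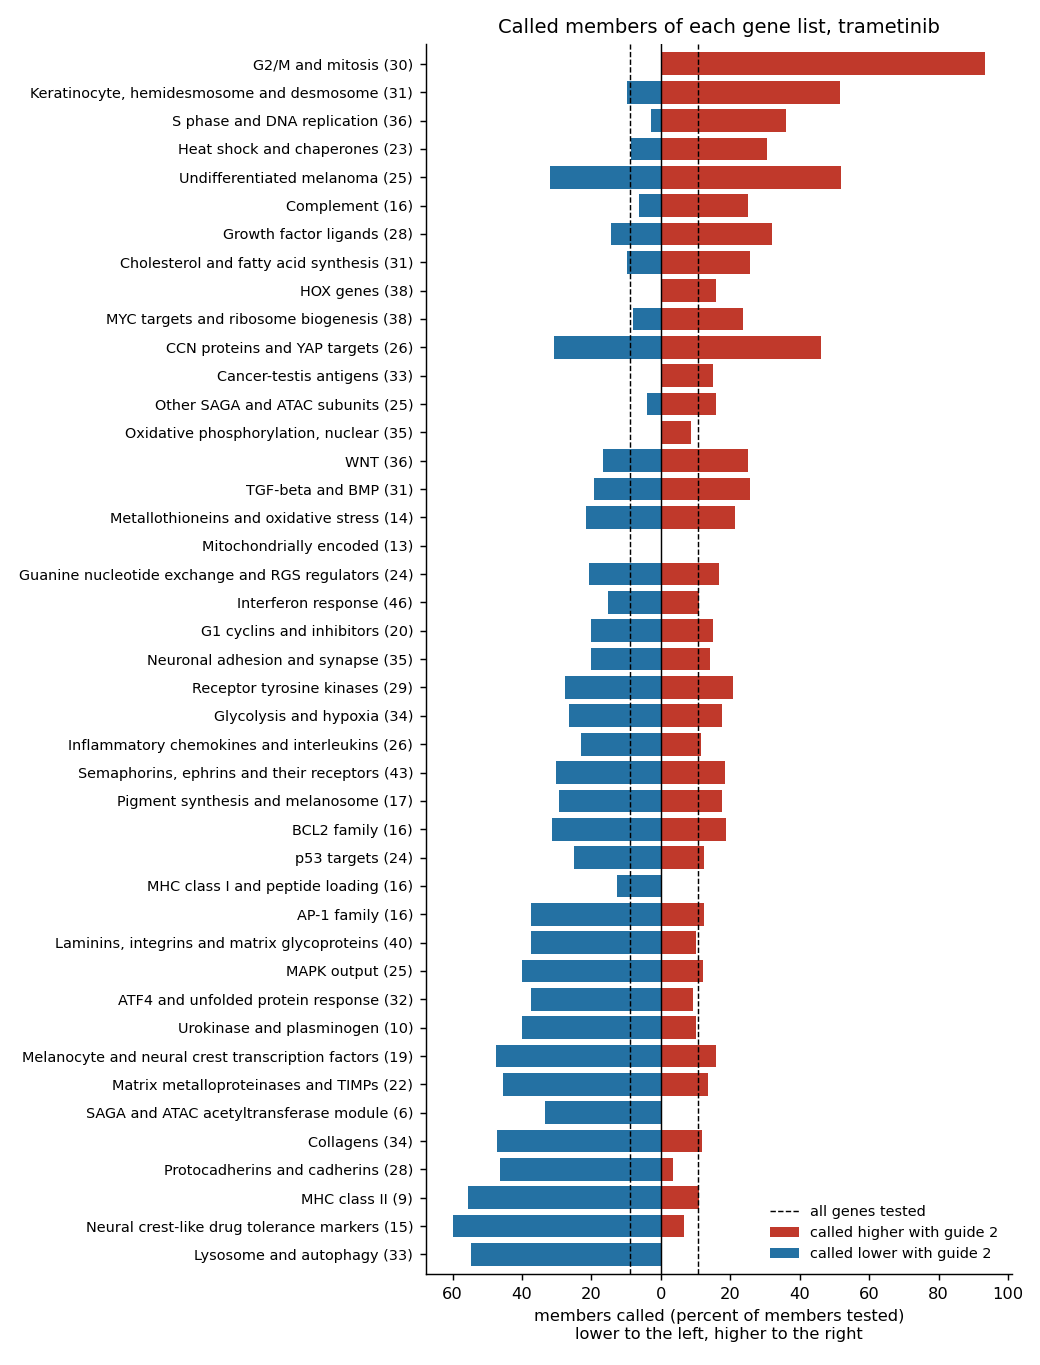
Percent of tested members of 43 gene lists called higher or lower with guide 2 than with guide 1 in trametinib; dashed lines mark all genes tested (10.8% higher, 8.91% lower). G2/M and mitosis stands farthest on the higher side, with 28 of 30 members, and lysosome and autophagy has 18 of 33 members lower and 0 higher.

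Lysosome and autophagy genes fell by small amounts: 18 of 33 were lower with guide 2 and 0 higher, with a median of -0.12. MCOLN1, the calcium channel of lysosomes, had 16.7, 17.1 and 16.0 CPM with guide 2, against 20.3, 22.0 and 21.7 CPM with guide 1 and 24.0, 23.7 and 26.5 CPM with the control guide (log2 -0.36 ± 0.056). The glucosidase GAA (-0.36), the protease CTSD (-0.33) and the saposin precursor PSAP (-0.24) came next, and 41.7% of the exon bases of CTSD are shared with a same-strand gene. The MCOLN1 promoter is shown because lysosomal genes are known for E-boxes of the letters CACGTG, bound by TFEB and MITF, and it holds 2 of them (capitals).
MCOLN1: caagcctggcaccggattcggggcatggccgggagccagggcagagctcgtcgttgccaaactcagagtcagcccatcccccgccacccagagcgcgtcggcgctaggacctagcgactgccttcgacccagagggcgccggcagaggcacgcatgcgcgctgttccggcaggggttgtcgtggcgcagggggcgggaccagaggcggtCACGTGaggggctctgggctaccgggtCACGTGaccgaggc
It lies at chr19:7522374-7522623 on the plus strand, and the matches stood at -41 and -14. Of 22 list members with a promoter, 8 (36.4%) held CACGTG, against 8.27% of promoters of tested genes. Of the 1619 promoters of all genes called lower, 139 (8.59%) held it.

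Extracellular matrix lists held more falls than rises. Of 34 collagen genes 16 fell and 4 rose (median -0.16). COL15A1 (-1.42 ± 0.145) and COL5A3 (-1.11 ± 0.050) fell most, and COL3A1 (1.04 ± 0.218) and COL12A1 (0.55) rose. COL3A1 averaged under 1 log2-CPM. COL15A1 did not meet the level or separation required for the 15 largest falls. COL5A3 averaged 17.5 CPM with guide 2, 37.8 CPM with guide 1 and 35.3 CPM with the control guide, whereas COL12A1 averaged 90.8 CPM with guide 2, 62.0 CPM with guide 1 and 35.0 CPM with the control guide. Of 40 laminins, integrins and matrix glycoproteins 15 fell and 4 rose, led by ITGB3 (-0.92), an integrin chain that shares 51.6% of its exon bases with a same-strand gene, TNC and MGP (-0.73), a calcification inhibitor, with FBN2 (0.86), a fibrillin, among the rises. Of 22 metalloproteinases and their inhibitors 10 fell and 3 rose. MMP15, a membrane-bound protease, averaged 22.3 CPM with guide 2, 48.2 CPM with guide 1 and 73.2 CPM with the control guide (-1.11). MMP1, the interstitial collagenase, rose to 4.38 CPM with guide 2, against 2.79 CPM with guide 1 and 0.0994 CPM with the control guide (0.64). Among 10 genes of the urokinase system 4 fell and 1 rose, led by PLAU, urokinase itself (0.68), and SERPINF1 (-0.54).

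Ligands and receptors changed in both directions. Of 29 receptor tyrosine kinases 8 fell and 6 rose: FLT1 (-1.29), the neurotrophin receptor NTRK2 (-0.89), the SOX10-dependent receptor ERBB3 (-0.82) and FGFR4 (-0.69) fell, and EGFR rose most. ERBB3 averaged 278 CPM with guide 2, 489 CPM with guide 1 and 1165 CPM with the control guide. Of 28 growth factor ligands 9 rose and 4 fell (median 0.15). The rises were led by HGF (0.90), KITLG (0.79), NRG4 (0.70) and VEGFC (0.62), and KITLG, the ligand of KIT, averaged 29.4 CPM with guide 2, 17.0 CPM with guide 1 and 8.02 CPM with the control guide. Falls in the ligand list numbered 2 without guide 1 replicate 2 or guide 2 replicate 1. In the TGF-beta and BMP list 8 of 31 rose and 6 fell, with falls in BMP7 (-1.01) and PMEPA1 (-0.91), a TGF-beta feedback inhibitor, and rises in TGFBR3 (0.58) and TGFB3 (0.43). Of 36 WNT pathway genes 9 rose and 6 fell: DKK2 (1.36), a secreted antagonist averaging 0.325 CPM with guide 2 and 0.126 CPM with guide 1, rose but lost its call without guide 1 replicate 2 or guide 2 replicate 1, and the receptor FZD8 (-0.93) and DKK3 (-0.60) fell. Of 26 CCN proteins and YAP targets 12 rose and 8 fell. CCN3 and CCN2 (-0.59) fell, whereas CCN1 (0.40) and ANKRD1 (0.59), also usual targets of YAP, rose. CCN2 averaged 20.7 CPM with guide 2, 31.1 CPM with guide 1 and 43.6 CPM with the control guide, and CCN1 averaged 31.0 CPM with guide 2, 23.5 CPM with guide 1 and 7.19 CPM with the control guide.

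Adhesion and guidance genes were lower more often than higher. Of 28 protocadherins and cadherins 13 fell and 1 rose (median -0.15), led by PCDH7 (-0.94), PCDHGC3 (-0.83) and PCDH1 (-0.64). PCDHGC3 shares 40.2% of its exon bases with other genes of the PCDHG cluster, so reads could be split among them. PCDH9 was the rise (0.52), and DESeq2, voom, both 6-library fits and 4 of the fits without 1 library (guide 1 replicate 1 or 3, guide 2 replicate 1 or 3) called 2 to 4 rises in this list. Of 43 semaphorins, ephrins and their receptors 13 fell and 8 rose: NRP2 (-0.96), EPHB3 (-0.83) and PLXNB3 (-0.77) fell and the ephrin receptor EPHA5 (0.68) rose. NRP2, a co-receptor of semaphorins and VEGF, averaged 140 CPM with guide 2, 272 CPM with guide 1 and 441 CPM with the control guide. Of 35 neuronal adhesion and synapse genes 7 fell and 5 rose, with CADM3 (-1.08), of which 36.6% of exon bases lie opposite an antisense gene, GRIN2A (-0.85) and GRIK2 (-0.73), glutamate receptor subunits, falling. Regulators of RAS and G proteins counted 5 falls, such as RASGRP1 (-0.71), and 4 rises, such as RGS2 (0.52), among 24, with 3 falls without guide 1 replicate 2 or guide 2 replicate 3 and 2 rises without guide 2 replicate 2.

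Immune lists were mixed, with falls in MHC class II genes. Their counts are to be read against 10.8% of all genes called higher and 8.91% called lower. Of 46 interferon response genes 7 (15.2%) fell and 5 (10.9%) rose, led by IFI6 (-0.39), and 14 fell in a fit of the 6 libraries alone. The share of rises was near that of all genes. Rises in that list numbered 2 to 3 without guide 1 replicate 1 or 2 or guide 2 replicate 1. Of 16 genes of MHC class I and peptide loading 2 (12.5%) fell, TAP1 (-0.23) and B2M (-0.22), and 0 rose. Of 9 MHC class II genes 5 fell and 1 rose, RFXAP (0.26), which lost its call without guide 1 replicate 2 or guide 2 replicate 1. CIITA, the master factor of class II expression, had 47.8, 43.1 and 45.3 CPM with guide 2, against 83.9, 87.2 and 81.1 CPM with guide 1 and 98.9, 93.9 and 100 CPM with the control guide (log2 -0.89 ± 0.038). CD74, the invariant chain, had 959, 1005 and 1007 CPM with guide 2, against 1490, 1582 and 1508 CPM with guide 1 and 1631, 1573 and 1757 CPM with the control guide (log2 -0.62 ± 0.034). Both were lower with guide 2 in all libraries, and guide 1 overlapped the control guide in CD74. Of 26 chemokines and interleukins 6 fell and 3 rose, with IL24 and IL1B at either end of the called members. Of 16 complement genes 4 rose and 1 fell, among them C4A (0.48) and C4B (0.42), near-identical copies whose reads may be split either way, and CD59 (-0.29).

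Metabolic and stress lists held calls in both directions, to be read against 10.8% of all genes called higher and 8.91% called lower. Of 32 genes of the ATF4 and unfolded protein response 12 fell and 3 rose, led by DDIT4 (-0.68) and VLDLR (-0.44). Of 34 genes of glycolysis and hypoxia 9 fell and 6 rose, with CA9 (0.72) and PFKFB4 (-0.31). Cholesterol and fatty acid genes counted 8 rises, such as STARD4 (0.38), and 3 falls among 31, and 4 to 5 rises without the low-count filter or without guide 1 replicate 1 or guide 2 replicate 1 or 2. For 35 nuclear genes of oxidative phosphorylation 3 (8.57%) rose, led by SDHD (0.21), which is under the share of all genes, and 0 fell, with 1 rise and 1 fall without guide 1 replicate 1 or guide 2 replicate 3. Of 13 mitochondrially encoded genes 0 were called with edgeR, 2 were higher with limma voom and 1 was higher without guide 2 replicate 3. In the list of MYC targets and ribosome biogenesis 9 of 38 rose and 3 fell, and the largest change was the fall of the spermidine synthase SRM (-0.84), which averaged 89.3 CPM with guide 2, 159 CPM with guide 1 and 337 CPM with the control guide. Without guide 1 replicate 1 that list had 3 rises, and without guide 1 replicate 2 or guide 2 replicate 1 it had 1 fall. Heat shock and chaperone genes counted 7 rises, led by HSPA4L (0.28) and HSPB8 (0.28), and 2 falls, led by CRYAB (-0.94), among 23, with 4 rises without guide 1 replicate 1 and 1 fall without guide 1 replicate 2 or 3 or guide 2 replicate 3. Of 24 p53 targets 6 fell and 3 rose, with PMAIP1, a BH3-only death protein, rising (0.63), and of 16 BCL2 family genes 5 fell, led by BCL2A1 (-0.80), and 3 rose, with 3 falls without guide 1 replicate 2 or 3 or guide 2 replicate 1. PMAIP1 averaged 10.1 CPM with guide 2, 6.52 CPM with guide 1 and 0.979 CPM with the control guide. Metallothionein and oxidative stress genes counted 3 rises, led by TXNRD1 (0.38), and 3 falls, led by HMOX1 (-0.37), among 14. Cancer-testis antigens counted 5 rises of 33, led by XAGE1B (0.20), and HOX genes 6 rises of 38, among them HOXD13 (0.35), with 0 falls in either, or 1 HOX fall without guide 1 replicate 1 or 3. The cancer-testis count was 2 without guide 1 replicate 1 and 3 without guide 1 replicate 3, and XAGE1A and XAGE1B in it are near-identical copies.

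Within the complex that TADA2B belongs to, the acetyltransferase gene KAT2B had the largest called change. Of 6 genes of the acetyltransferase module of SAGA and ATAC, KAT2B and TADA2B fell and 0 rose. KAT2B, one of the 2 interchangeable acetyltransferases, had 168, 162 and 160 CPM with guide 2, against 248, 241 and 233 CPM with guide 1 and 263, 249 and 254 CPM with the control guide (log2 -0.56 ± 0.031, adjusted p = 8.5e-20). Guide 2 stood apart from both other groups. Of 25 other subunits 4 rose, by 0.10 to 0.15 (TAF9, TAF5L, SUPT20H and TRRAP), and the deubiquitinase USP22 fell (-0.13). Without guide 1 replicate 1 or guide 2 replicate 1 the rises in that list were 2, and without guide 1 replicate 2 or guide 2 replicate 1 the acetyltransferase list had 1 rise. TAF5L lost its call without guide 1 replicate 1 or guide 2 replicate 2.

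The guide difference could be compared with the same difference in the other treatments, which share no library with it. In vemurafenib 4026 genes (16%) were called between guide 2 and guide 1, 1795 higher (7.12%) and 2231 lower (8.85%), and in DMSO 3008 (11.9%), 1170 higher (4.64%) and 1838 lower (7.29%). Of the 4954 genes called in trametinib, 2900 (58.5%) were also called in vemurafenib with the same sign, which is 72.0% of the genes called there, and 7 with the opposite sign. In DMSO 1513 (30.5%) were called with the same sign, 50.3% of the genes called there, and 184 with the opposite sign. Over the genes called in trametinib, log2 differences correlated at 0.78 with those in vemurafenib and at 0.49 with those in DMSO (Pearson r across genes, which are not independent replicates). Over all 25199 genes tested, most of them not called, r was 0.36 with vemurafenib and 0.20 with DMSO. G2/M genes were called higher in 27 of 30 cases in vemurafenib (median 0.25) and 14 of 30 in DMSO (median 0.13), with 0 lower in either. Lysosome genes were called lower in 22 of 33 in vemurafenib and 12 of 33 in DMSO, with 0 higher in either. Other lists turned in DMSO. Cholesterol and fatty acid genes had 8 higher and 3 lower in trametinib, 3 and 3 in vemurafenib, and 1 and 8 in DMSO. AP-1 genes had 2 higher and 6 lower in trametinib, 2 and 5 in vemurafenib, and 6 and 3 in DMSO.

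**Figure D4:**
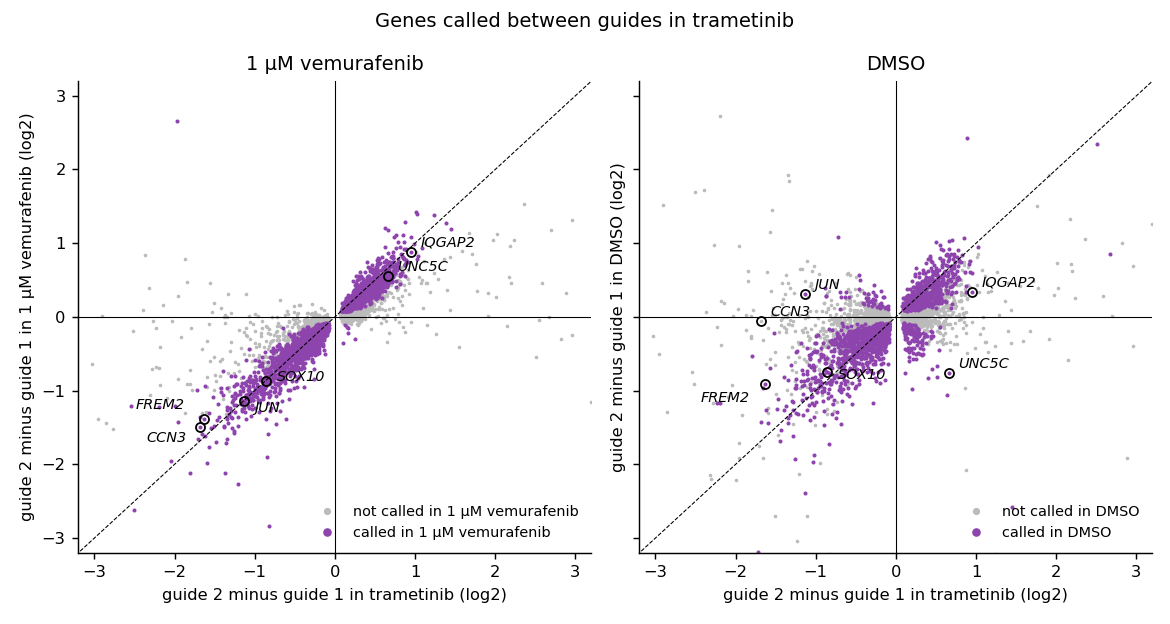
Log2 difference of guide 2 from guide 1 in vemurafenib (left) and DMSO (right), vertical, against that in trametinib, horizontal, for the 4952 plotted genes called in trametinib; 11 and 15 genes lie outside the axes. Points follow the diagonal more closely in vemurafenib (r = 0.78) than in DMSO (r = 0.49); over all genes tested r was 0.36 in vemurafenib and 0.20 in DMSO.

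Whether the guide difference itself differed between trametinib and DMSO was tested as an interaction. It was called in 2023 genes (8.03%): in 1318 (5.23%) guide 2 minus guide 1 was more positive in trametinib, and in 705 (2.8%) more negative. Among called protein-coding genes averaging at least 1 log2-CPM over the libraries of the contrast, the largest positive interaction was in UNC5C, a netrin receptor. UNC5C had 40.2, 37.5 and 38.6 CPM with guide 2, against 23.5, 25.5 and 24.2 CPM with guide 1 in trametinib, and 1.85, 1.502 and 1.77 CPM with guide 2, against 2.65, 3.01 and 3.01 CPM with guide 1 in DMSO. Guide 2 was thus higher under the drug and lower in the solvent, and the interaction was 1.43 ± 0.118 (adjusted p = 4.5e-13). LOXL4, a lysyl oxidase, had 135, 144 and 140 CPM with guide 2, against 117, 124 and 124 CPM with guide 1 in trametinib, and 161, 159 and 162 CPM with guide 2, against 314, 317 and 314 CPM with guide 1 in DMSO (interaction 1.17 ± 0.045). CD24, a surface glycoprotein, had 65.4, 70.4 and 65.6 CPM with guide 2, against 46.7, 51.4 and 49.96 CPM with guide 1 in trametinib, and 0.979, 0.989 and 0.880 CPM with guide 2, against 1.91, 1.24 and 1.51 CPM with guide 1 in DMSO (interaction 1.15 ± 0.168). In all 3 genes the sign of the guide difference turned between the treatments. FGF13 (1.33), PDE3A (1.23), a phosphodiesterase, and PCDH9 (1.18) were the others of the 6 largest above that level, under which BMP5 also had a called interaction (1.41).

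On the negative side, CCN3 had the largest interaction (-1.62 ± 0.046, adjusted p = 2.8e-30): in DMSO it had 34.3, 36.4 and 34.9 CPM with guide 2, against 37.4, 37.0 and 35.9 CPM with guide 1, a log2 difference of -0.06 that did not pass (adjusted p = 0.30). JUN in DMSO had 15.3, 16.5 and 17.7 CPM with guide 2, against 13.7, 12.6 and 13.5 CPM with guide 1, a rise of 0.31, which gave an interaction of -1.44 ± 0.059. The fall of JUN with guide 2 was therefore measured under the inhibitor and not in the solvent. ATF3 in DMSO was also higher with guide 2, at 4.39, 4.65 and 4.15 CPM, against 3.09, 4.07 and 3.70 CPM with guide 1 (interaction -1.15 ± 0.091). IL24 (-1.30), ENTREP2 (-1.61), NAV2 (-1.28), a neuron navigator protein, and DCT (-1.19) completed the 6 largest above that level, under which FLRT1 also had a called interaction (-1.26). DCT was near 0 in DMSO, at 0.251, 0.354 and 0.194 CPM with guide 2 against 0.217, 0.198 and 0.128 CPM with guide 1. CCND1 had an interaction of 0.56 ± 0.047, with 252, 251 and 241 CPM with guide 2 against 374, 377 and 380 CPM with guide 1 in DMSO, where it fell (-0.60), and no called difference in trametinib. SOX10 (-0.12, adjusted p = 0.20) and EGFR (-0.02, adjusted p = 0.94) had no called interaction.

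Between trametinib and vemurafenib, drugs that act on neighbouring kinases of one pathway, the interaction was called in 47 genes (0.187%), 32 positive (0.127%) and 15 negative (0.0595%). The count depended on single libraries: it was 252 without vemurafenib guide 2 replicate 3, 29 without vemurafenib guide 2 replicate 2 and 31 without trametinib guide 2 replicate 2. DUSP6 had the largest positive value (0.75 ± 0.163, adjusted p = 0.021): in vemurafenib it had 6.01, 6.14 and 7.10 CPM with guide 2, against 11.1, 12.7 and 12.5 CPM with guide 1, while in trametinib all 6 libraries were under 1 CPM. TFAP2B, a neural crest AP-2 factor, had 36.2, 36.6 and 37.2 CPM with guide 2, against 41.5, 45.1 and 44.9 CPM with guide 1 in trametinib, and 78.8, 80.8 and 78.3 CPM with guide 2, against 140, 139 and 149 CPM with guide 1 in vemurafenib (0.59 ± 0.048). Both genes had a smaller guide difference in trametinib. In the other direction STING1, the adaptor of cytosolic DNA sensing, had 22.3, 25.5 and 22.9 CPM with guide 2, against 36.4, 37.2 and 36.7 CPM with guide 1 in trametinib, and 61.7, 64.3 and 58.4 CPM with guide 2, against 66.1, 68.2 and 69.5 CPM with guide 1 in vemurafenib (-0.50 ± 0.062). FOSL2, an AP-1 factor, had 121, 123 and 122 CPM with guide 2, against 191, 198 and 205 CPM with guide 1 in trametinib, and 77.3, 75.3 and 74.5 CPM with guide 2, against 97.9, 95.1 and 102 CPM with guide 1 in vemurafenib (-0.32 ± 0.046). The fall with guide 2 was larger in trametinib in both.

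**Figure D5:**
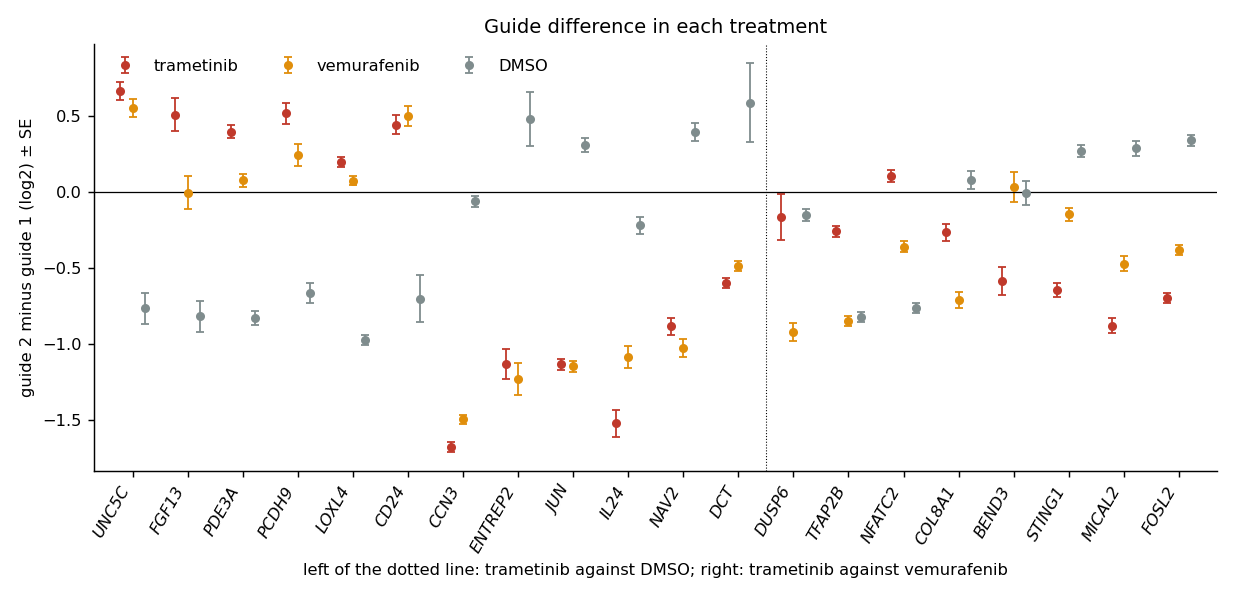
Log2 difference of guide 2 from guide 1 ± standard error in trametinib, vemurafenib and DMSO for named genes with a called interaction, against DMSO left of the dotted line and against vemurafenib right of it. UNC5C is above 0 in trametinib and below 0 in DMSO, and JUN is below 0 in both inhibitors and above 0 in DMSO.

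Against the control guide in trametinib, 13697 genes (54.4%) were called with guide 2 and 12450 (49.4%) with guide 1. These comparisons share the control libraries, and each shares 3 libraries with the guide comparison, so their values are given side by side and not tested against each other. For CCN3 the log2 difference from the control guide was -2.65 with guide 2 and -0.97 with guide 1, for SOX10 -1.90 with guide 2 and -1.04 with guide 1, for NGFR -2.78 with guide 2 and -1.76 with guide 1, and for JUN -2.69 with guide 2 and -1.56 with guide 1. On the higher side it was 3.05 with guide 2 and 2.07 with guide 1 for BMP5, 2.62 with guide 2 and 1.87 with guide 1 for CAV1 and 2.66 with guide 2 and 2.17 with guide 1 for EGFR. These genes were chosen after their values were seen. PHLDA1 (-0.74 with guide 2, -0.01 with guide 1), TNC (-0.79 with guide 2, 0.00 with guide 1) and KAT2B (-0.64 with guide 2, -0.09 with guide 1) were below the control mainly with guide 2. For TADA2B the values were -0.49 with guide 2 and -0.24 with guide 1.

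By position, the guide difference was spread over the genome. Chromosome medians lay between -0.01 and 0.06, and of 305 windows of 10 Mb with at least 10 tested genes, 277 had a median within 0.1 of 0. The lowest was -0.18 on chromosome 9 (20000001 to 30000000, 44 genes), where it was 0.0056 in vemurafenib and -0.051 in DMSO. In that window 18.2% of genes were called in trametinib, under the 19.7% of all genes tested. The highest median was 0.21 on chromosome 4 (120000001 to 130000000, 43 genes, 34.9% called), the window that holds CCNA2, with 0.17 in vemurafenib and 0.037 in DMSO.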

How the data were processed

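The authors deposited raw counts per gene for 27 polyA-selected, strand-marking RNA-seq libraries (the kit per the labels' protocols), in 9 groups of 3. Per the submitters' processing notes the tools were bcl2fastq, HISAT2 and HTSeq with hg38. For tool versions, annotation and strand setting the sources used here give nothing. Each of the 58721 gene identifiers matched GENCODE release 29, 0 rows named no gene and 0 columns were left unused. Total counts are given with the groups; at these depths the spread between libraries of a group exceeded counting error.

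From the counts, edgeR 4.0.16 (R 4.3.3) was fitted to all 27 libraries as 9 group means, with TMM factors, filterByExpr (25199 genes tested), robust quasi-likelihood dispersions, 18 residual degrees of freedom and Benjamini-Hochberg adjustment over all genes tested (threshold 0.05). The common biological coefficient of variation was 4.02%. Standard errors are the absolute log2 fold change from the unshrunken coefficients, divided by the square root of F. The log2 fold changes printed are edgeR's slightly shrunken values. Sets of genes were described by counts and medians, with no set test. Genes were named by a fixed rule: the 15 largest rises and falls among called protein-coding genes averaging at least 1 log2-CPM whose guide groups did not overlap, 6 per direction for each interaction, the 2 to 4 called members of each list with the largest change, and 9 genes always given. Named beyond this rule, after their values were seen, were ANXA1, AURKB, CCN1, CCNB2, COL12A1, EPHA5, FEN1, KRT8, PKP2, PLK1, PRC1, RAB27A, RAB38, SOX9, TRRAP and VEGFC. Members and lists were chosen with earlier results of these data known. Y-linked genes were never named. Some genes that the rule names are not reported here. Exon overlaps come from GENCODE, and promoters from RefSeq (GRCh38.p14), with a single start per gene.

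On simulated counts for the trametinib comparison of 25199 genes, the fit recovered 44 of 50 genes planted at 1.25-fold and 50 of 50 at each of 1.5-fold, 2-fold and 4-fold, with 8 false calls. Changes were planted only in genes above 2 CPM, and every gene was given the same 4% coefficient of variation. The simulation therefore does not cover low genes, among which most called 2-fold differences lay, or spread that varies between genes. Alternatives were DESeq2 1.42.0 size factors, its Wald test, limma 3.58.1 voom, other low-count filters, a term for replicate number, the 6 libraries alone, and leaving out each library; counts of called list members under these were added after seeing the data.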

Additional observations from a re-analysis of the deposited data

Results flagged for a closer look

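The guide difference changed with the treatment, by the interaction test of edgeR, in 2023 genes between trametinib and DMSO and in 47 genes between trametinib and vemurafenib. Of the genes described above, those whose difference of guide 2 from guide 1 was more positive in trametinib than in DMSO (interaction, log2) were UNC5C (1.43), BMP5 (1.41), FGF13 (1.33), PDE3A (1.23), PCDH9 (1.18), LOXL4 (1.17), CD24 (1.15), GFRA1 (0.98), IL1B (0.92), SCHIP1 (0.65), IQGAP2 (0.62) and CCND1 (0.56). BMP5 was under 0.3 CPM in every TADA2B library in DMSO, and its interaction had a standard error of 0.447. Those more negative in trametinib were CCN3 (-1.62), ENTREP2 (-1.61), JUN (-1.44), IL24 (-1.30), NAV2 (-1.28), FLRT1 (-1.26), DCT (-1.19), UCN2 (-0.77), FREM2 (-0.72), MMP8 (-0.69), ZNF536 (-0.66), NGFR (-0.55) and MOXD1 (-0.36).

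Against vemurafenib, the interaction was positive in DUSP6 (0.75), TFAP2B (0.59), RELL1 (0.55), C10orf90 (0.55), NFATC2 (0.46) and COL8A1 (0.44). It was negative in BEND3 (-0.62), STING1 (-0.50), IER3 (-0.46), MICAL2 (-0.41), FOSL2 (-0.32) and FOXC1 (-0.29). The guide difference of NFATC2 in trametinib itself lost its call in 9 of the alternatives, and that of RELL1 without guide 2 replicate 1 (0.18, adjusted p = 0.158). DUSP6 shares 40.5% of its exon bases with an antisense gene and IER3 26.5%. What sets these differences between treatments was not tested.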

How the results depend on the processing

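The direction of the guide difference in trametinib was checked for the genes that the naming rule gives, and not for all called genes or the interactions. No called difference among them reversed in any alternative run. The difference of MITF, which was not called, lay on either side of 0 (-0.01 to 0.02 without 1 library). Of 126 values for the comparison counts and TADA2B, 120 stayed the same and 6 moved. A count stayed the same if within 1.5 times the main count, whatever its balance of higher and lower genes, and TADA2B if it kept its direction and call. Of 2997 values for single genes 93 lost the call, and of 1344 counts of list members 85 moved. The trametinib count of 4954 ran from 4582 (no low-count filter) to 5449 (DESeq2's Wald test) with all libraries kept in the 27-library fits, and from 3968 to 4300 with 1 library left out. With at least 1 CPM on average, genes changed at least 2-fold numbered 111 in place of 289, as fewer low genes were tested, and the range without 1 library was 259 to 278. The interaction with vemurafenib was called in 114 genes by DESeq2's Wald test and 79 without the low-count filter, against 47, and in 29 to 252 with 1 library left out. Without 1 library, counts were 2287 to 2452 in DMSO, 3217 to 3979 in vemurafenib, 1605 to 1879 for the interaction with DMSO, 12809 to 13070 for guide 2 against the control guide and 11460 to 11754 for guide 1 against it, and TADA2B ranged from -0.27 to -0.23. Same-numbered libraries of the guide groups correlated in their deviations at 0.212, 0.133 and 0.0409. Among different-numbered libraries, guide 2 replicate 3 and guide 1 replicate 2 correlated at 0.133, and the other pairs were all negative (-0.225 to -0.0056). The main fit did not take the numbers as pairs, and these values do not settle whether they are pairs. The replicate block gave 4879 calls in the 27-library fit and 5972 in the 6 libraries of the comparison, where the fit without it gave 5292 (2633 higher, 2659 lower). In the block fit of the 6 libraries p53 targets had 10 falls and MHC class I genes 6. Depth limits genes under 1 CPM, such as SPRY4 and DUSP6, most.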
